A study of Arabidopsis thaliana with 6 samples.

Results

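Cytochrome P450s, UDP-dependent glycosyltransferases (UGT), beta-glucosidases (BGLU) and aldehyde dehydrogenases (ALDH) were followed in roots of Arabidopsis thaliana seedlings exposed to toxic boron. Members were all genes on the array whose symbol or synonym has the form of these families (CYP, UGT, BGLU or ALDH with its number code), which gave 102 genes of the 13356 with a probe set of their own. They comprised 22 P450, 50 UGT, 22 BGLU and 8 ALDH genes. UGT74B1 and the loci AT2G31790, AT5G08250 and AT3G13610 were left out by rule. The RefSeq table lists 365 genes with such names, so the 102 are a part of these families, and among the P450 genes 18 of 22 belong to 1 subfamily, CYP71B.

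Seedlings aged 5 days were moved to plates with 5 mM boric acid (H3BO3) in half-strength Murashige-Skoog medium, or to the same medium without it, and root RNA was sampled after 12 h. The design text compares transcripts early in an exposure that stunts root growth. Each group had 3 Affymetrix ATH1 arrays labelled as biological replicates, which are named below by group and replicate number (boric acid 1, control 1 and so on). The labels do not say whether the replicates were separate plates, pools or sowings, so p-values measure the spread between these arrays. No accession or genotype is named in the labels, and the growth text attached to the control arrays also speaks of boric acid plates, so the groups rest on the titles, the treatment labels and the design text.

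P450s are haem enzymes of the endoplasmic reticulum that insert oxygen into hormones, lipids, phenylpropanoids and foreign compounds. UGTs attach a sugar to such products, which makes them more soluble and allows storage in the vacuole, and beta-glucosidases remove the sugar again. In roots this cycle is known for monolignol glucosides, for glucose conjugates of hormones, and for PYK10 (BGLU23), the abundant glucosidase of endoplasmic reticulum bodies. Aldehyde dehydrogenases oxidise reactive aldehydes to acids. CYP71B is a large plant-specific P450 subfamily arranged in gene clusters, with few members of known substrate.

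Levels are the deposited log2 values, and a change is boric acid minus control. The TrpnX control probe sets, designed for bacterial transcripts, had 0.217 as their highest value and serve as empty controls. Against that value 64 members lay above it on all 6 arrays, 28 on some arrays and 10 on none. A level of one probe set says nothing about the level of another. "Rose" and "fell" are used for genes past a Benjamini-Hochberg adjusted p of 0.05 in limma's test over all probe sets, or past it with the replicate number as a block where that is said. In whole roots, fewer cells of a type and less RNA per cell cannot be told apart. The arrays numbered 1 stood apart from the others: the 3′ probe set of actin exceeded its 5′ probe set, a gap commonly read as a sign of RNA quality, by 2.96 and 2.60 log2 units on boric acid 1 and control 1, against 1.23 to 1.71 on the other 4. Within each number the gap was the larger one on the boric acid array (1.71 against 1.67 for number 2 and 1.28 against 1.23 for number 3). Between the groups, an exact permutation test of the gap over arrays gave p = 0.7, where 0.1 is the lowest it can reach. The part of this gap in the results was not tested. Of 20 root markers written, 2 were measured, PYK10 at 9.96 to 10.44 and ACR4 at 0.51 to 1.20. Of 14 green tissue markers, 3 were measured, all above the empty controls on all arrays, with mean levels per array of 3.06 to 3.86 in boric acid and 3.47 to 4.12 in control roots. They did not move alike: the change was -0.99 ± 0.33 (SE, adjusted p = 0.187) for LHCB4.2, -0.22 ± 0.27 for LHCB4.1 and 0.12 ± 0.24 for RCA. Of 8 seed markers none was measured. None of these 5 genes passed the threshold with or without the block. The part of green tissue in the results was not tested.

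After 12 h in boric acid, 3 members rose and 2 fell. BGLU45, a glucosidase of monolignol glucosides, rose 2.67-fold, UGT73B4, of a group known for responses to hydrogen peroxide and foreign chemicals, rose 2.26-fold, and the P450 gene CYP71B28 rose 1.69-fold. UGT72E1, which glucosylates coniferyl and sinapyl aldehydes, was 4.63-fold lower, and ALDH6B2, a mitochondrial methylmalonate-semialdehyde dehydrogenase of valine breakdown, was 1.69-fold lower. These 5 are 4.90% of the members, against 2.71% of all genes (1.62% higher and 1.09% lower). With the replicate block 15 members passed, 7 higher and 8 lower, which is 14.7% against 7.84% of all genes (4.63% higher and 3.20% lower). The 15 include all 5.

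**Figure D1:**
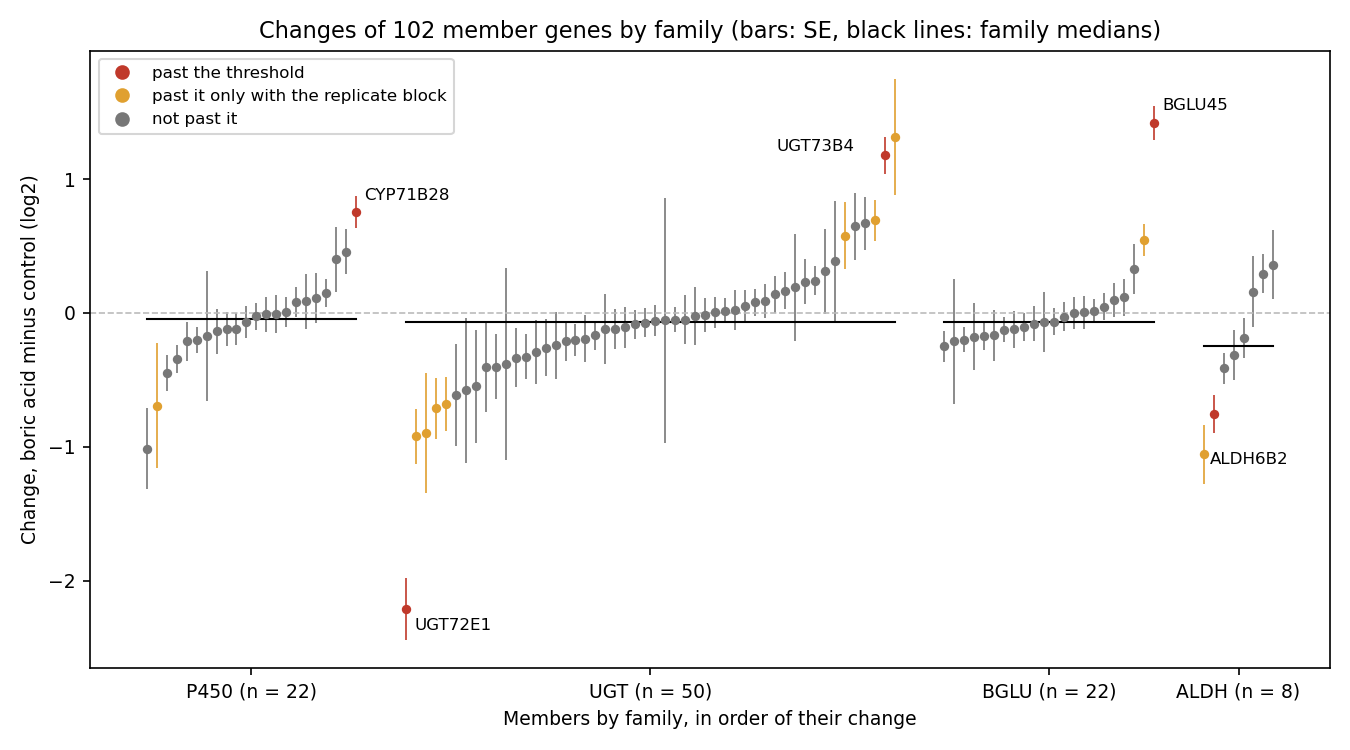
Change of each of the 102 members on the log2 scale (y axis, boric acid minus control, bars are the SE of the fit) by family, in order of change (x axis). Red points passed the threshold, yellow points passed only with the replicate block, and black lines are family medians, which lie between -0.25 for ALDH and -0.04 for P450.

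By family, 1 of 22 P450 genes rose, 1 of 50 UGT genes rose and 1 fell, 1 of 22 BGLU genes rose, and 1 of 8 ALDH genes fell. Over all genes 2.71% passed. The median change was -0.04 for the P450, -0.07 for the UGT, -0.07 for the BGLU and -0.25 for the ALDH genes, and -0.02 over all genes. The change was under 0.5 log2 units in size for 81 of the 102 members and over 1 for 6. The groups did not overlap for 24 members, 9 higher and 15 lower, or 23.5% in all. Over all genes the groups did not overlap in 20.0% (10.1% higher and 9.88% lower). The mean change was above 0 for 38 of the 102, against 46.4% of all genes. At an unadjusted p under 0.05 in limma stood 19 of the 102 members, or 18.6%, against 14.9% of all genes. The 87 members that passed in neither fit had changes from -1.01 to 0.67 and a median of -0.06.

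BGLU45 (AT1G61810) was at 2.54, 2.90 and 2.70 on boric acid 1 to 3 and 1.29, 1.20 and 1.39 on control 1 to 3. All boric acid arrays lay more than 1 log2 unit above all control arrays. Its change was 1.42 ± 0.13 (SE, n = 3, limma, adjusted p = 0.00751), and the call held whichever of the 6 arrays was removed (1.33 to 1.51). UGT73B4 (AT2G15490) was at 5.71, 5.53 and 5.76 on boric acid 1 to 3 and 4.72, 4.34 and 4.40 on control 1 to 3, again without overlap. The change of UGT73B4 was 1.18 ± 0.14 (adjusted p = 0.0128), and it kept its call without boric acid 1 or control 1 and lost it without each of the other 4 arrays. CYP71B28 (AT1G13090) stood at 2.85, 3.01 and 2.99 on the boric acid arrays and at 2.02, 2.25 and 2.32 on the control arrays, a change of 0.75 ± 0.12 (adjusted p = 0.0291). Among the fits without 1 array, CYP71B28 kept its call only without control 1, at changes of 0.67 to 0.82, and it lost the call with the prior variance as a trend.

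UGT72E1 (AT3G50740) had the largest change of all members. It was at 2.23, 2.95 and 2.40 in boric acid against 4.93, 4.86 and 4.42 in control roots, so the groups were more than 1 log2 unit apart. UGT72E1 fell by 2.21 ± 0.23 (SE, adjusted p = 0.00976) and lost its call only without control 2, at changes of -2.42 to -2.06. ALDH6B2 (AT2G14170) was at 6.84, 6.67 and 6.98 on the boric acid arrays and 7.74, 7.37 and 7.65 on the control arrays, close but without overlap. It fell by 0.76 ± 0.14 (adjusted p = 0.0466, and 0.0171 with the block), and every removal of 1 array, 6 in all, ended its call (-0.86 to -0.68), as did testing only probe sets with a mean level of at least 1. Removing the boric acid arrays 1, 2 and 3 in turn left 3, 2 and 2 members past the threshold, and removing the control arrays left 6, 1 and 2. Over all 13356 genes the same fits left 167, 36 and 87, and 573, 64 and 128, against 362 with all arrays. Without both arrays numbered 1, 7 members and 809 of all genes passed. BGLU45, UGT73B4, CYP71B28 and UGT72E1 were among the 7 and ALDH6B2 was not.

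**Figure D2:**
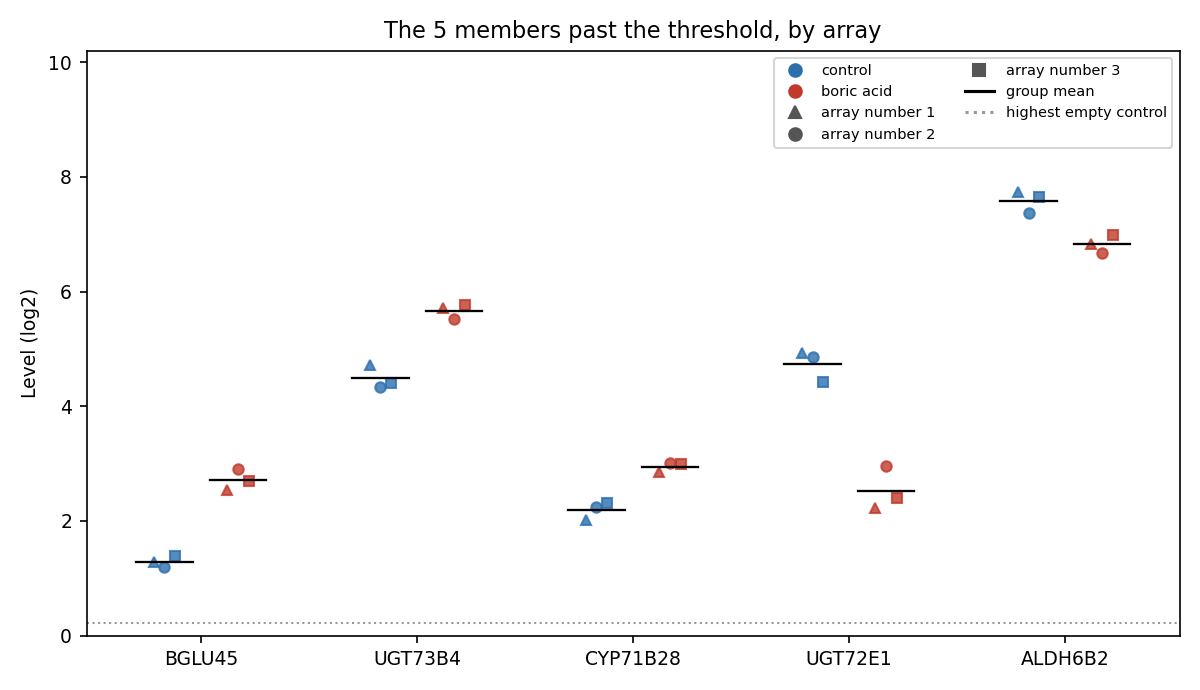
Log2 level (y axis) of the 5 members past the threshold on each control (blue) and boric acid (red) array. Symbols mark the replicate number, black lines the group means and the dotted line the highest empty control at 0.217. In all 5 genes the groups do not overlap, as in 20.0% of all genes. The 5 were called from these same values, so the lack of overlap supports nothing further.

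Genes of phenylpropanoid, lignin and coumarin metabolism held both of the largest changes past the threshold. Of 22 genes written for this list 13 were measured, all of them members: BGLU45 rose, UGT72E1 fell and 11 did not pass, with a median change of -0.12. With the block UGT72E2 and ALDH2C4 fell as well. The share past the threshold was 15.4% without and 30.8% with the block, against 2.71% and 7.84% of all genes. No set test was run on this list, which was written with earlier results of these data known. UGT72E2 (AT5G66690), which glucosylates coniferyl and sinapyl alcohol, was at 5.27, 4.28 and 4.25 on boric acid 1 to 3 and 6.35, 5.28 and 4.86 on control 1 to 3. Levels were highest on the arrays numbered 1 in both groups, and UGT72E2 was lower in boric acid within each number, by differences between -1.09 and -0.61 (adjusted p = 0.0176 with the block and 0.398 without). UGT72E3, the remaining enzyme of that subfamily, had a change of -0.12 ± 0.26 (adjusted p = 0.888), and its sign turned without control 1 (0.12). ALDH2C4 (AT3G24503), also known as REF1, oxidises coniferyl and sinapyl aldehyde to ferulic and sinapic acid. It stood at 6.26, 6.21 and 5.67 in boric acid and 7.45, 6.87 and 6.98 in control roots, without overlap, so that it differed by -1.06 ± 0.22 (blocked adjusted p = 0.0171, unblocked 0.0622). ALDH2C4 was the member nearest to the threshold among those that did not pass.

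BGLU46, a monolignol glucosidase whose gene lies next to BGLU45, was at 3.13, 4.02 and 4.07 on boric acid 1 to 3 and 2.96, 4.43 and 4.47 on control 1 to 3. Its levels were lowest on the array numbered 1 in each group, and the arrays numbered 1 differed from the others by -1.20 log2 units. The change of BGLU46 was -0.21 ± 0.47. BGLU47, placed with BGLU45 and BGLU46 by sequence, lay near the empty controls at 0.16 ± 0.16 (SD, n = 3) in boric acid and 0.15 ± 0.10 in control roots. UGT72B1, which glucosylates monolignols and chlorinated phenols, had a change of -0.24 ± 0.25 (SE), and CYP84A4, a P450 of the arabidopyrone pathway, one of -0.45 ± 0.13 with all boric acid arrays below all control arrays. BGLU42, a glucosidase linked to release of coumarins under iron deficiency, had one of -0.07 ± 0.22. The UGT84A enzymes make glucose esters of hydroxycinnamic acids, and the changes of UGT84A1, UGT84A3 and UGT84A4 were -0.05 ± 0.92, 0.31 ± 0.32 and 0.19 ± 0.40. None of these passed in either fit.

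**Figure D3:**
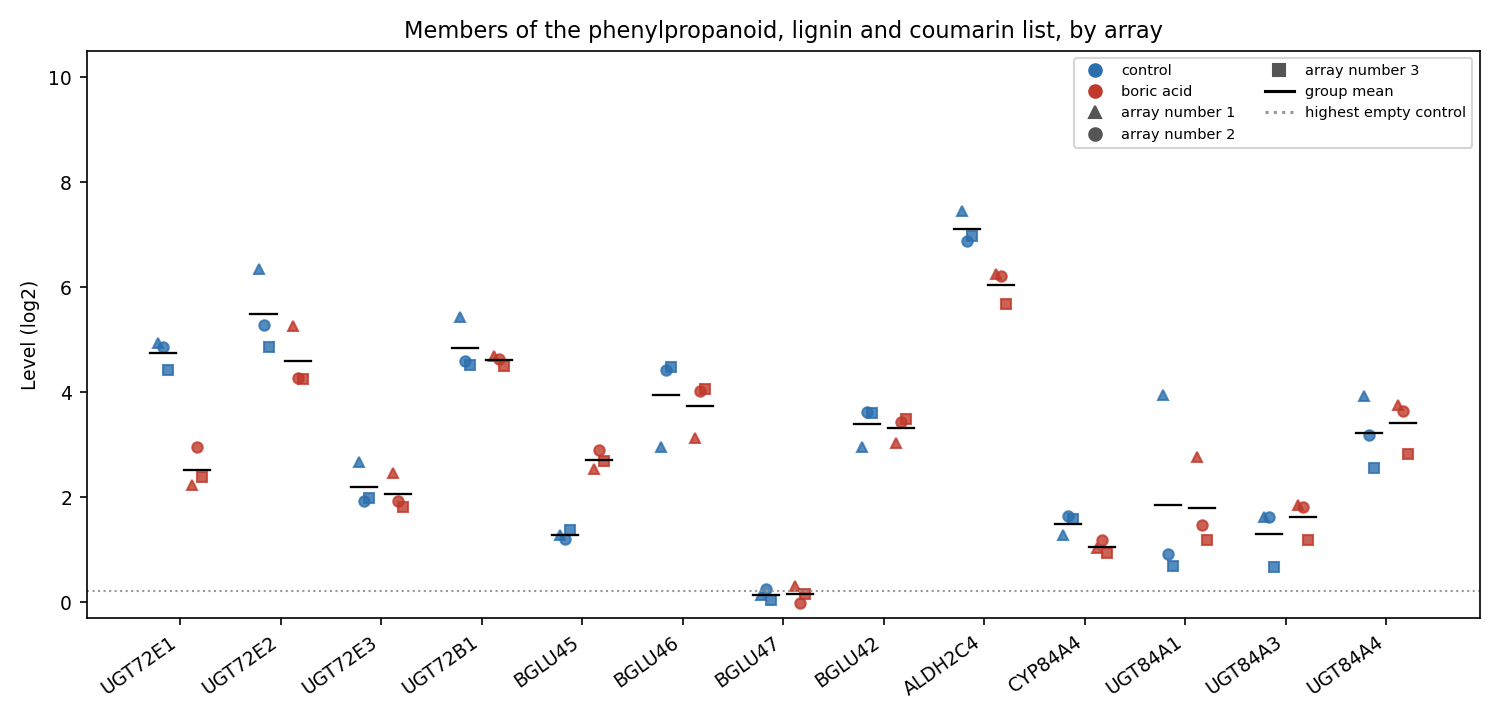
Log2 level (y axis) of the 13 measured members of the phenylpropanoid, lignin and coumarin list on each array, control in blue and boric acid in red, with symbols for the replicate number and black lines for group means. The groups part for UGT72E1, BGLU45, ALDH2C4 and CYP84A4, or 30.8% of the 13, against 20.0% of all genes. UGT72E2 and UGT84A1 are highest on the array numbered 1 in each group.

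BGLU21 and BGLU22 share 1 probe set and were therefore no members. It was looked at after its values were seen. Both are root glucosidases of the PYK10 type that cleave scopolin, the glucoside of the coumarin scopoletin. The shared probe set was at 8.09, 8.09 and 8.29 in boric acid and 8.97, 8.84 and 9.06 in control roots, without overlap, so that it fell by 0.80 ± 0.11 (SE; adjusted p = 0.0210 unblocked and 0.0138 blocked). Which of the 2 genes carried it cannot be told apart. PYK10 itself was at 10.01, 10.08 and 9.96 in boric acid and 10.44, 10.12 and 10.24 in control roots, close but also without overlap. Its change was -0.25 ± 0.12 (adjusted p = 0.364). The other 5 probe sets shared with a further gene, among them that of UGT73B2 and UGT73B3 with a change of 0.39 ± 0.13 (adjusted p = 0.187), did not pass without the block. With it, the probe sets holding UGT89B1 (change 0.68 ± 0.20, adjusted p = 0.0387) and UGT71D1 (-0.77 ± 0.32, adjusted p = 0.0324) passed.

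Of 21 glucosidases written for endoplasmic reticulum bodies and glucosinolate-type substrates, 11 were measured. None passed in either limma fit (0 also at unadjusted p under 0.05), and their changes lay between -0.25 (PYK10) and 0.12. The groups did not overlap for PYK10, BGLU19 and BGLU20, all lower, or 27.3% of the 11, against 20.0% of all genes. Only 3 of the 11 lay above the empty controls on all arrays, so for most of them a change could hardly be seen. BGLU40 (AT1G26560), whose substrate in the plant is not settled, was at 1.24, 1.07 and 1.20 in boric acid and 0.75, 0.45 and 0.67 in control roots, a change of 0.55 ± 0.12 (SE, adjusted p = 0.0684), and it rose with the block (adjusted p = 0.0345). Of the 22 BGLU members 10 lay above the empty controls on all arrays, and 3 on none.

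UGT73B4 lies directly beside UGT73B5, and both are known to respond to hydrogen peroxide and pathogens. UGT73B5 (AT2G15480) was at 3.58, 3.79 and 3.91 in boric acid and 3.04, 2.66 and 3.64 in control roots. The groups overlapped, and the change was 0.65 ± 0.25 (adjusted p = 0.265). UGT73B1 had a change of -0.55 ± 0.42, with its lowest level in each group on the array numbered 1. The 3 measured UGT73C genes, whose subfamily holds enzymes for brassinosteroids and foreign compounds, had changes of 0.00 to 0.17 at levels that were not above the empty controls on all arrays.

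The 5 measured UGT71C genes lie in a cluster of 3 and a pair. UGT71C5 glucosylates abscisic acid, UGT71C3 methyl salicylate, and other enzymes of the subfamily accept flavonoids in vitro. Without the block 0 passed, and 3 of 5 reached an unadjusted p under 0.05 in limma, which 14.9% of all genes did. With it UGT71C2, UGT71C3 and UGT71C5 fell, or 60% of the 5, against 7.84% of all genes. UGT71C2 (AT2G29740) was at 1.45, 1.68 and 1.88 in boric acid and 2.21, 2.88 and 2.69 in control roots, so that it differed by -0.92 ± 0.20 (blocked adjusted p = 0.0161, unblocked 0.0733). For UGT71C3 (AT1G07260) boric acid minus control within the numbers 1, 2 and 3 was -0.81, -0.67 and -0.57, and for UGT71C5 (AT1G07240) it was -0.56, -0.74 and -0.83. Both were lower in each pair, with adjusted p = 0.0223 and 0.0208 with the block and 0.145 and 0.179 without. UGT71C4, which lies between UGT71C5 and UGT71C3, had a change of 0.23 ± 0.17, and UGT71C1 one of -0.61 ± 0.38.

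Among genes of hormone turnover, 6 of 24 written were measured and none passed without the block. At an unadjusted p under 0.05 in limma stood 2 of the 6, against 14.9% of all genes. With the block 1 rose and 1 fell, or 33.3%, against 7.84% of all genes. The one that fell was UGT71C5, given above, which had the largest change of the list, -0.71 ± 0.23. Of the 6 changes 4 were above 0 and 2 below. UGT76C1 and UGT76C2 attach glucose to cytokinin nitrogen atoms and are neighbours. UGT76C1 was at 1.62, 1.08 and 0.99 in boric acid and 0.38, 0.78 and 0.54 in control roots, a change of 0.67 ± 0.20 (adjusted p = 0.152). UGT76C2 overlapped between groups, at a change of 0.58 ± 0.25, but was higher within each number, by 0.45, 0.53 and 0.74, and rose with the block (adjusted p = 0.0375, and 0.323 without). UGT71B6, an abscisic acid glucosyltransferase, lay near the empty controls at 0.37 ± 0.13 (SD, n = 3) against 0.13 ± 0.05. Of the 5 measured genes for auxin and salicylate conjugation of 10 written, none passed in either limma fit (0 also at unadjusted p under 0.05). UGT74D1, an auxin glucosyltransferase, had a change of -0.33 ± 0.17 (SE), UGT74F1, which acts on salicylate, -0.05 ± 0.18, and UGT76B1, which acts on isoleucic acid and salicylate, -0.03 ± 0.22. UGT76D1 had the largest change of that list, 0.39 ± 0.45, and passed without control 1 or without both arrays numbered 1.

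Further UGT members passed with the block. UGT87A2 (AT2G30140), linked to flowering time, was at 5.80, 5.38 and 5.83 in boric acid and 4.99, 3.32 and 4.77 in control roots, with control 2 lowest by far. The groups did not overlap. It was higher by 0.82, 2.06 and 1.06 within the numbers 1, 2 and 3 (adjusted p = 0.0326 with the block and 0.190 without), and its change was 0.79 without control 2 against 1.31 with all arrays. UGT80B1 (AT1G43620), a sterol glucosyltransferase, averaged 1.92 ± 0.19 (SD, n = 3) with boric acid and 1.22 ± 0.21 without, with no overlap (change 0.69 ± 0.16, blocked adjusted p = 0.0489, unblocked 0.0762). The other sterol glucosyltransferase, UGT80A2, the 1 gene measured of 16 written for brassinosteroids and sterols, had a change of -0.20 ± 0.12 and passed in neither fit. The 4 measured flavonoid and anthocyanin glycosyltransferases of 9 written had changes of -0.58 to -0.19, none of them past the threshold in either limma fit (0 also at unadjusted p under 0.05). The changes of UGT78D1 and UGT78D2, flavonol 3-O-rhamnosyl- and 3-O-glucosyltransferases, turned sign without control 1, to 0.063 and 0.27.

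Of 18 measured CYP71B genes, 1 rose, 0 fell and 17 did not pass, with a median change of -0.04. The share past the threshold was 5.56% without and 11.1% with the block, against 2.71% and 7.84% of all genes. The subfamily held 7 genes above the empty controls on all arrays and 4 on none. CYP71B29, beside CYP71B28, was at 3.01, 3.29 and 3.14 on boric acid 1 to 3 and 2.19, 3.01 and 3.04 on control 1 to 3, a change of 0.40 ± 0.24 (SE, adjusted p = 0.510). CYP71B27 had a change of -0.20 ± 0.10 near the empty controls, and RefSeq lists it as a transcribed pseudogene, as it does CYP51G2. CYP71B34 (AT3G26300) was at 1.18, 1.32 and 0.97 in boric acid and 2.87, 1.82 and 1.82 in control roots, with control 1 well above the rest and no overlap. It differed by -1.01 ± 0.30 (adjusted p = 0.149 unblocked and 0.0552 blocked) and passed in neither fit, at -0.66 without control 1. CYP71B37 (AT3G26330) overlapped between groups and was lower within the numbers 1, 2 and 3, at -0.90, -0.32 and -0.86, so that it fell with the block (adjusted p = 0.0482, and 0.559 without). CYP71B6, linked to indole-3-carboxylic acid synthesis, and CYP71B23 had changes of 0.11 ± 0.19 and 0.09 ± 0.20. The remaining 11 CYP71B genes had changes between -0.21 and 0.15.

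Of the 4 P450 members outside CYP71B, CYP84A4 is given above. CYP51G2, related to sterol demethylases, was at 0.52, 0.52 and 0.57 in boric acid and 0.81, 1.03 and 0.79 in control roots (change -0.35 ± 0.11, adjusted p = 0.165). CYP78A9, which promotes fruit and seed growth, had a change of 0.46 ± 0.17, and CYP79A2, which makes phenylacetaldoxime, one of 0.08 ± 0.11 near the empty controls. CYP79A2 and CYP71B6 were the 2 genes measured of 21 written for indole and defence compounds, and neither passed in either fit. No probe set in the tables used here, where 8730 carry no gene name, was named for a single gene of the lists on suberin, cutin and fatty acid hydroxylation, root triterpenes, carotenoid hydroxylation, or the reductases and cytochromes b5 that pass electrons to P450s, so these were not analysed here.

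Of the 8 ALDH members, all above the empty controls on all arrays, ALDH6B2 fell, and ALDH2C4 fell with the block. The share past the threshold was 12.5% without and 25% with the block, against 2.71% and 7.84% of all genes. ALDH6B2 lost its call in every fit without 1 array. The list of stress-related aldehyde dehydrogenases held 7 of the 8, of 13 written. Of these 7, 1 fell and 6 did not pass, or 14.3% past the threshold in either fit. ALDH22A1 was at 4.25, 4.27 and 4.01 in boric acid and 4.49, 4.65 and 4.63 in control roots, without overlap, and its change of -0.41 ± 0.12 did not pass (adjusted p = 0.129, and 0.104 with the block). ALDH7B4, the turgor-responsive antiquitin, had a change of 0.29 ± 0.15, and ALDH3F1, of a family of stress-related aldehyde detoxification, one of 0.16 ± 0.26. ALDH10A8 and ALDH10A9, which oxidise aminoaldehydes, had changes of -0.31 ± 0.19 and -0.19 ± 0.15. ALDH11A3, a non-phosphorylating glyceraldehyde-3-phosphate dehydrogenase, had one of 0.36 ± 0.26.

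Many members are neighbours on the chromosome. In 34 pairs 2 measured members of a family followed each other with at most 2 coding genes between, which took in 56 members. In 0 pairs did both genes pass the threshold and in 3 did 1 gene, and with the block in 0 pairs both and in 8 pairs 1. Few pairs could hold 2 such genes, since 4.90% of members passed (2.71% of all genes), and 14.7% with the block (7.84%). Some members stand in more than 1 pair. The signs of the 2 changes were the same in 18 of 34 pairs. Neighbours among all genes were not counted, so these counts say nothing particular about the members. For 7 pairs of a called gene with a neighbour or close relative, chosen after their values were seen, the difference of their changes was taken within arrays. BGLU45 exceeded BGLU46 by 1.63 ± 0.55 (SE) log2 units, and UGT73B4 exceeded UGT73B5 by 0.53 ± 0.33 and UGT73B1 by 1.73 ± 0.62. CYP71B28 exceeded CYP71B27 by 0.96 ± 0.15 and CYP71B29 by 0.35 ± 0.19. UGT72E1 lay below UGT72E2 with a difference of -1.31 ± 0.60 and below UGT72E3 with one of -2.09 ± 0.42. These within-array differences did not overlap between boric acid and control arrays in 5 of the 7 pairs, the exceptions being UGT72E1 with UGT72E2 and CYP71B28 with CYP71B29. The called gene of each pair did not overlap between groups by itself, so the choice of pairs favoured this outcome and the count supports nothing. An exact permutation test of 3 against 3 arrays cannot go below 0.1, so it decides nothing about these differences, which are given as a description.

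**Figure D4:**
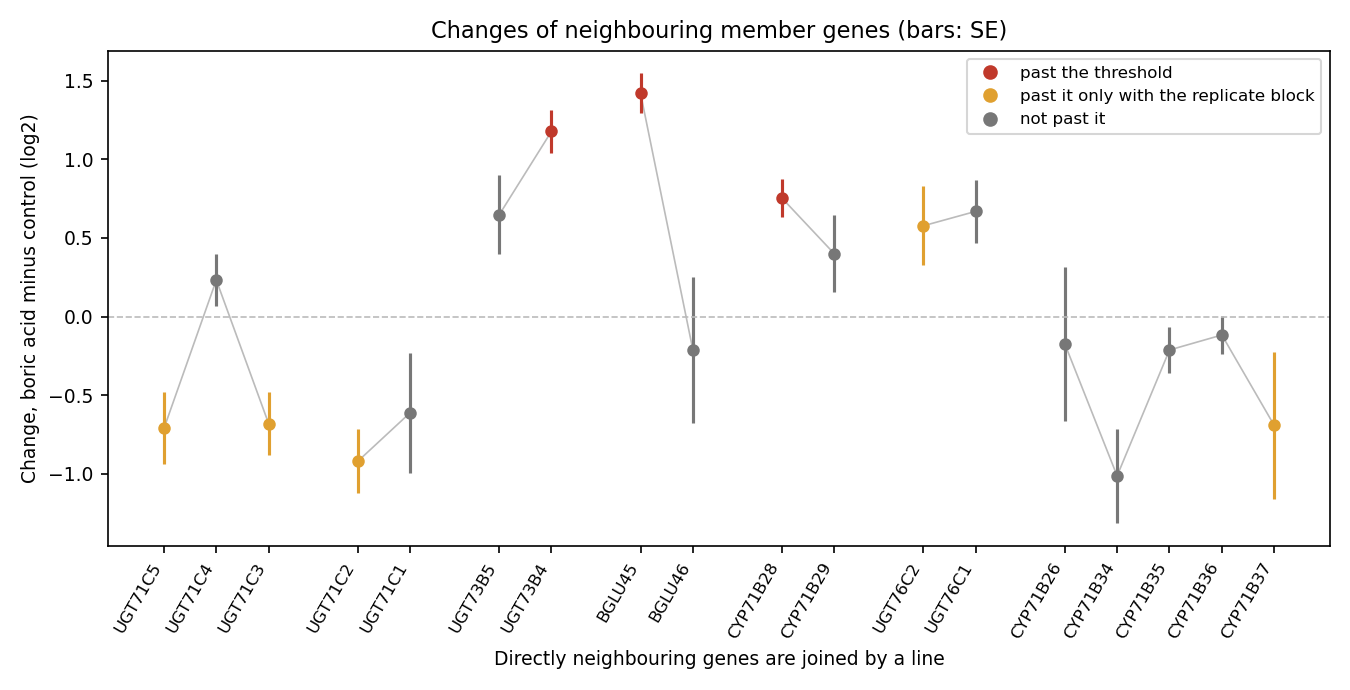
Change (y axis, log2, boric acid minus control, bars are SE) of members whose genes lie directly beside each other, joined by a line in chromosome order along the x axis. BGLU45 and BGLU46 stand at 1.42 and -0.21, while UGT71C4 at 0.23 sits between UGT71C5 and UGT71C3 at -0.71 and -0.68.

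Some members differed more between replicate numbers than between treatments. The levels on both arrays numbered 1 lay above all other arrays for 14 members, or 13.7%, against 11.8% of all genes, and below them for 8 members, or 7.84%, against 9.79% of all genes. UGT84A1 was at 2.76, 1.47 and 1.18 on boric acid 1 to 3 and 3.96, 0.92 and 0.69 on control 1 to 3, so the arrays numbered 1 exceeded the rest by 2.29 log2 units. Its change turned from -0.05 to 0.52 without both arrays numbered 1. UGT78D2 was at 6.79, 5.16 and 4.73 on boric acid 1 to 3 and 7.24, 5.34 and 5.25 on control 1 to 3, with the arrays numbered 1 higher by 1.89. CYP71B26, UGT78D1 and CYP71B37 were higher there by 1.26, 1.26 and 1.19, and BGLU46 and UGT73B1 differed by -1.20 and -0.98. The part of RNA quality in these differences was not tested.

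**Figure D5:**
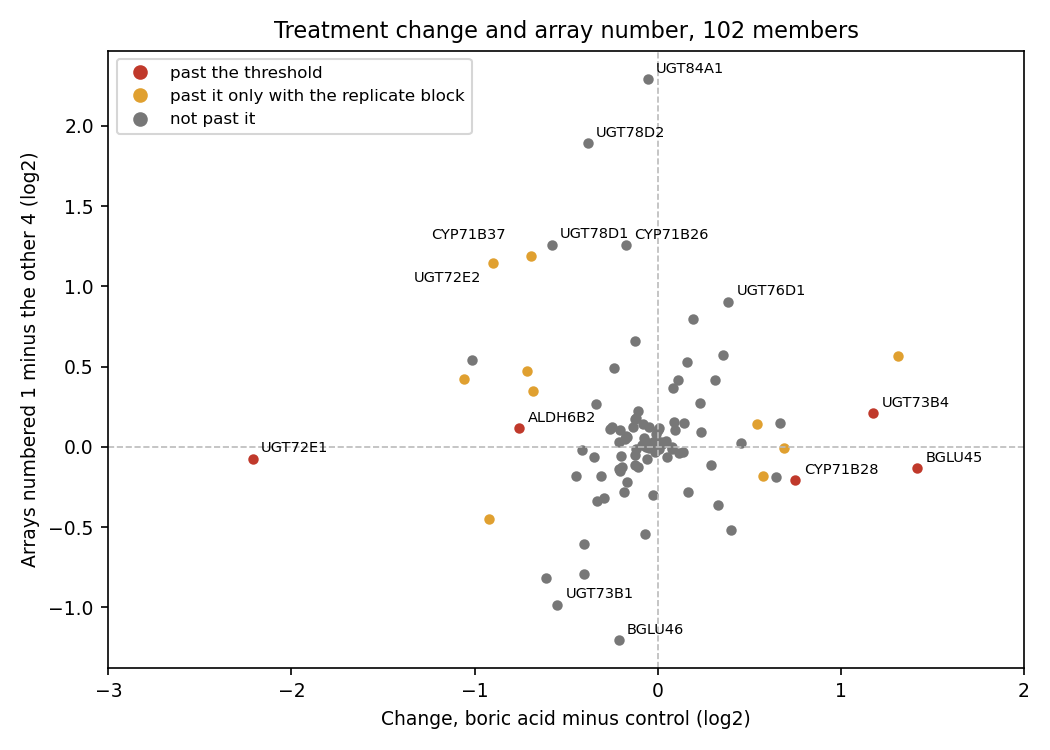
Difference between the arrays numbered 1 and the other 4 (y axis, log2) against the change with boric acid (x axis, log2) for each of the 102 members. The 5 members past the threshold (red) lie within 0.3 of zero on the y axis, while UGT84A1 and UGT78D2 stand highest at 2.29 and 1.89. A large difference on this axis widens the spread within each group, so the unblocked fit favours members near zero. The place of the red points therefore supports nothing about array number.

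Among partner genes outside these families, written for other steps of detoxification, 2 of 21 glutathione transferases of the phi, zeta, theta and lambda classes and 3 of 14 reductases were measured. GSTL3, of the lambda class, was at 4.77, 4.78 and 4.57 in boric acid and 4.03, 3.96 and 3.85 in control roots and rose by 0.76 ± 0.11 (SE, adjusted p = 0.0217), a call that was kept in 1 of the 6 fits lacking an array. GSTF4 had a change of -0.27 ± 0.29. AER, an alkenal reductase that acts on products of lipid peroxidation, was at 4.56, 4.71 and 3.61 on boric acid 1 to 3 and 3.65, 2.51 and 2.94 on control 1 to 3. The groups overlapped, and the change of 1.26 ± 0.39 passed in neither fit (adjusted p = 0.161 unblocked and 0.0596 blocked). AOR, an alkenal and alkenone reductase, rose with the block (change 0.64 ± 0.24, adjusted p = 0.0479, and 0.246 without), and NQR had a change of -0.26 ± 0.11.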

How the data were processed

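Root RNA of 3 boric acid and 3 control samples was hybridised to ATH1 arrays after labelling with a 3′ kit. The authors made the values with RMA, per the submitters' processing notes, which give no version. The deposited values are log2 levels per probe set, normalized across arrays. On these values the hybridization controls cre and bioB (5′ probe sets) differed by 5.83 to 6.48, and array medians lay between 1.45 and 1.49. Array number limits the precision.

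Of 22810 probe sets, 64 controls were set aside and 22746 tested with limma 3.58.1 in R 4.3.3 (lmFit, eBayes, two-sided, Benjamini-Hochberg over all tested). A single gene was named for 13513, through the array's table and RefSeq (TAIR10.1, names, biotypes and neighbours only), 503 matched several genes and 8730 had no name here. For 146 genes with several probe sets the highest mean stood for the gene, and all members had 1. Of the members, 96 matched by symbol in the array's table and 6 by synonym.

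Replicate numbers were taken to pair the arrays, since deviations from group means correlated at 0.608, 0.231 and 0.618 for the pairs numbered 1, 2 and 3, each over 0.1 (other combinations -0.619 to 0.284). The correlation of the pair numbered 2 was below that of boric acid 3 with control 2 (0.284), so the rule does not single out that pair. The labels do not say what the numbers stand for. Since they give the groups and no pairing, the unblocked fit is the main one. The blocked fit is the alternative and is printed where it changes a call. On simulated data for this comparison (22746 probe sets, 200 changed), the test made 7 false calls. It recovered 33 of 76 changes of 1 log2 unit, 47 of 59 of 2 and 57 of 65 of 3. Whether these counts hold for arrays with shared deviations, as in the pairs numbered 1 and 3, was not tested. The members, lists and rules were chosen with earlier results of these data known. Named genes are those past the threshold, their subfamily relatives, the largest change in each list, the 8 nearest to the threshold, those past it only with the block and those with the widest range in a group. Other genes named were chosen after their values were seen. Promoter motifs and protein identities, planned as descriptions, were not run, since no sequence was used here.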

Additional observations from a re-analysis of the deposited data

How the results depend on the processing

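With the replicate block 15 members passed, 7 higher and 8 lower (2 P450, 9 UGT, 2 BGLU and 2 ALDH). Beyond the members and probe sets named with their blocked values, the block changed no other call among the genes named here. With array weights 8 passed, 4 of them lower, with 2 BGLU and 2 ALDH. With the prior variance as a trend the count stayed at 5, with 0 P450 (CYP71B28 not past the threshold, and 5 of 22 P450 genes at an unadjusted limma p under 0.05 in the fit as reported, against 14.9% of all genes) and 2 ALDH, and GSTL3 lost its call (adjusted p = 0.0629). Leaving out both arrays numbered 1, chosen after the data were seen, gave 4 UGT. Over all genes 1047 passed with the block, 675 with array weights, 304 with the trend and 809 without both arrays numbered 1. Without 1 array at a time the counts ran from 1 to 6 for all members, 1 to 4 higher, 0 to 2 lower, 0 to 1 P450, 0 to 4 UGT, 1 to 1 BGLU and 0 to 0 ALDH, and the BGLU median from -0.10 to 0.0065. Testing only probe sets with a mean of at least 1 gave 5 of 52 members, ALDH2C4 in place of ALDH6B2, and a BGLU median of -0.13 over 7 genes. Quantile normalization, subtracting array medians and taking the probe set with the lowest mean each left the same 5 members past the threshold. Over all genes these settings left 345, 347 and 358 in turn. The mean level of at least 1 left 357 of all genes, and the removals of 1 array left 36 to 573.

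Alternatives were run for the genes chosen by the naming rule and not for the others in the text. Among those run, signs turned only for genes not past the threshold. Without 1 array the changes ran from -0.12 to 0.056 for CYP71B5, -0.040 to 0.24 for CYP71B6, -0.074 to 0.061 for CYP71B21, -0.061 to 0.27 for CYP71B23, -0.16 to 0.0044 for CYP71B24, -0.52 to 0.31 for CYP71B26, -0.10 to 0.092 for CYP71B31, -0.067 to 0.022 for CYP71B38, -0.32 to 0.12 for UGT72E3, -0.92 to 0.063 for UGT78D1, -0.99 to 0.27 for UGT78D2 and -0.64 to 0.996 for UGT84A1. Quantile normalization gave 2.8e-05 for CYP71B31 and 0.0074 for CYP71B5, subtracting medians -0.011 for CYP71B21, array weights 0.030 for CYP71B5 and 0.24 for UGT84A1, and leaving out both arrays numbered 1 gave 0.069 and 0.52 for these. The cause was not tested.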
